A study of Mus musculus with 6 samples.

Results

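Rab GTPases are small membrane-bound switches that direct vesicle traffic. Each is loaded with GTP by an exchange factor (GEF) on a particular membrane, recruits effectors that move, tether or fuse vesicles, and is switched off by a GTPase-activating protein (GAP). A dissociation inhibitor then moves the inactive form between membranes, and an escort protein acts when a new Rab receives its lipid. In macrophages this family is known for guiding the uptake of particles, the ripening of phagosomes into lysosomes, the surface delivery and breakdown of receptors such as TLR4, and the secretion of cytokines.

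Members were the rows of the deposited expression table whose symbol is Rab followed by digits and at most a short ending, without pseudogenes. The rule found 60 of 18019 genes. Of these, 56 encode Rab GTPases and 4 fit the spelling alone. The 4 are Rab3ip, which encodes a GEF of Rab8, Rab5if, named as a Rab5-interacting factor, and the opposite-strand RNAs Rab10os and Rab26os, and they are described apart from the GTPases. The rule used no measured value.

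The libraries came from RAW264.7, a mouse macrophage cell line, by sequencing of polyadenylated RNA. All 6 were induced with lipopolysaccharide (LPS), a bacterial product sensed through TLR4, and 3 of them were also treated with TPPU, an inhibitor of soluble epoxide hydrolase, the other 3 being untreated controls (M1-1 to M1-3 against M1-TPPU-1 to M1-TPPU-3). The labels give neither the dose nor the time of LPS or TPPU, and there is no group without LPS. Nothing in them tells separate cultures from repeat libraries, so p-values measure the spread between these libraries alone, which may be technical.

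Values are FPKM, the fragments counted on a gene divided by its length and by the library's total, and depths of 17.7 to 22.8 M (mega) fragments per library were estimated from them. Of 8 macrophage markers, 7 had a mean of at least 1 FPKM, the exception being Mrc1, and their summed level was 1549 to 1740 FPKM in the controls and 1636 to 1725 with TPPU. None of the T cell, B cell, fibroblast and epithelial markers in the table reached a mean of 1 FPKM. Control replicate 3 stood apart, at 31.4 on the first principal component against -14 to 5.02 for the others, and how far its genes lay from their means followed GC content (Spearman's rho 0.61 across genes). The descriptions of the TPPU samples also name a column of another table after sh-LIS1, a knockdown of Pafah1b1. Pafah1b1 measured 11.7, 14.2 and 6.52 FPKM in the controls and 10.7, 13.5 and 14.2 with TPPU, and these values overlapped.

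No Rab GTPase gene passed the test between TPPU and control. A gene was tested if it reached 1 FPKM in at least 3 libraries, which kept 38 of the 56 GTPase genes and 9728 genes in all. In limma on log2(FPKM + 1), with p-values adjusted over all 9728 genes and a threshold of 0.05, 0 Rab genes were higher and 0 lower, against a background of 0% in each direction. The lowest adjusted p among the 38 was 0.562, for Rab28. At an unadjusted p under 0.05 there were 2 higher genes, Rab28 and Rab39, against a background of 4.19%, and 1 lower gene, Rab19, against 3.70%. Leaving out control replicate 3 gave a lowest adjusted p of 0.316, for Rab8b, and weighting the libraries by quality gave 0.0919, for Rab19. With those weights 0 Rab genes were called, against a background of 0.915% higher and 0.822% lower.

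The family as a whole differed little between the groups. Of the 38 tested genes 18 had a positive and 20 a negative log2 change, from -0.51 to 0.44, with a median of -0.03 beside 0.02 over all tested genes. The 95% intervals of the single genes bound what these libraries could have shown. That of Rab7, the narrowest, ran from -0.32 to 0.02, and that of Rab5a, the widest, from -0.45 to 0.99. The summed level of the 56 genes was 757, 782 and 748 FPKM in the controls and 771, 743 and 776 with TPPU, or 0.246% to 0.262% of all FPKM in the table. In bulk RNA, fewer cells with a transcript and less transcript per cell cannot be told apart.

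**Figure D1:**
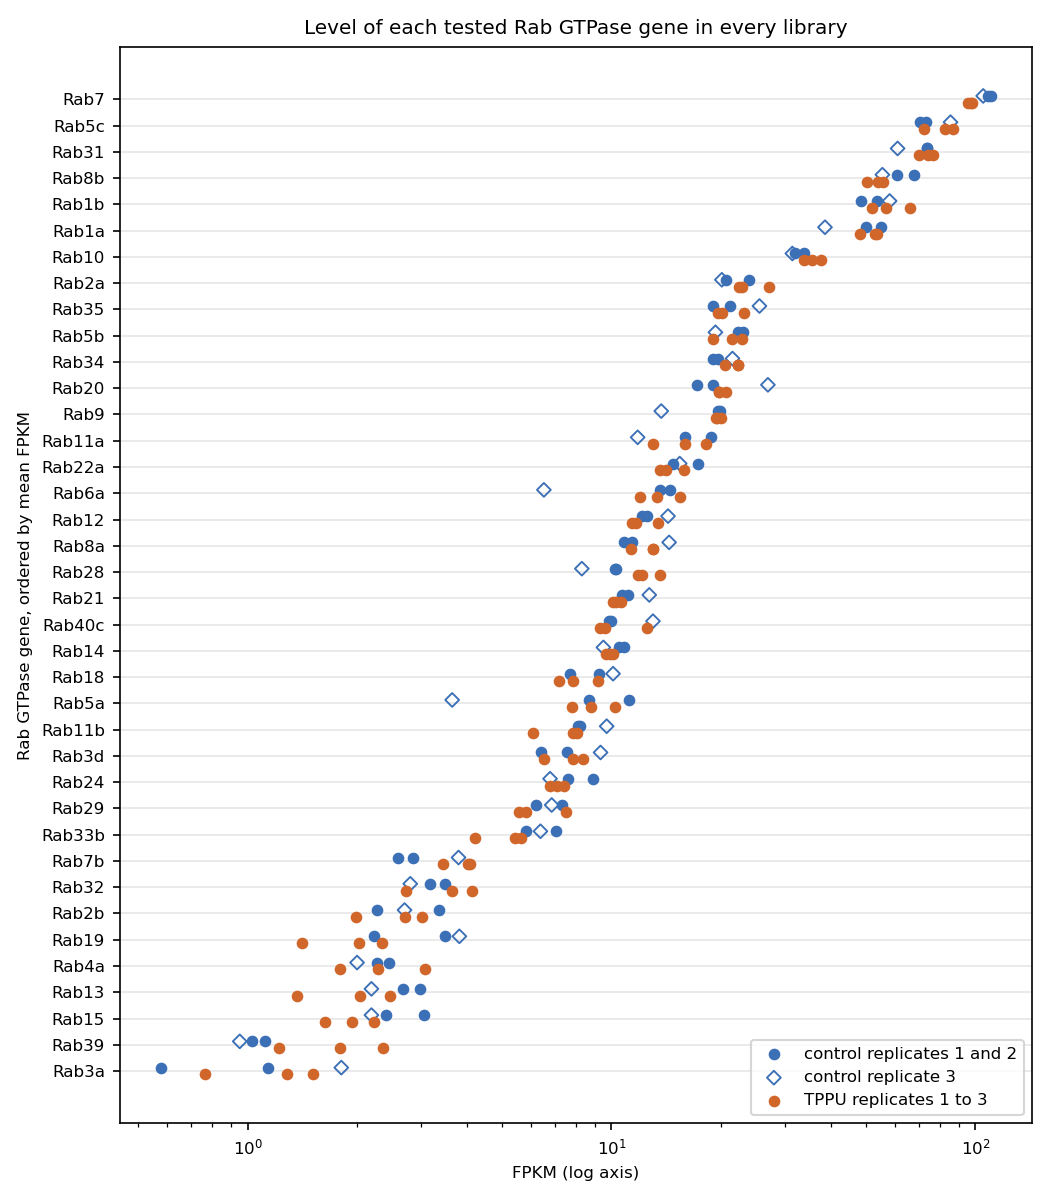
FPKM on a log axis of the 38 tested Rab GTPase genes, ordered by mean level, with 1 point per library. Rab7 was the highest gene in every library, and control replicate 3 (open diamonds) lay below the other 5 libraries for Rab6a and Rab5a and above them for Rab20.

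The order of levels was led by Rab7, which drives late endosomes and phagosomes to fuse with lysosomes. Its 6 values, 95.2 to 110, did not overlap those of the next gene, Rab5c, one of the 3 Rab5 forms of the early endosome, at 70.5 to 86.7. Rab5c was followed by Rab31, a Rab5-like protein of the trans-Golgi network and endosomes, then by Rab8b, an exocytic Rab, and by Rab1b and Rab1a, which act between endoplasmic reticulum (ER) and Golgi. The ranges of neighbours from Rab5c down to Rab1a overlapped. Even so, Rab31 exceeded Rab8b in all 6 libraries, and the values of Rab5c and Rab31 lay wholly above those of Rab1a, whereas the other neighbours in that stretch changed places between libraries. Rab10 came next, at 31.4 to 37.6, and overlapped with neither neighbour. Together the 6 highest genes held 53.7% to 55% of the family's summed FPKM in every library.

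Below these the levels fell off gradually. A mean of at least 50 FPKM was seen for 5 genes, 20 to 50 for 7, 10 to 20 for 10, 5 to 10 for 7, 1 to 5 for 9, and under 1 for 18. From Rab2a down to Rab40c each gene overlapped in its values with the next in the order. FPKM is per kilobase, so levels can be set side by side between genes, within the limits of the transcript lengths the authors used.

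Late endosomal, lysosomal and phagosomal Rabs comprised 11 genes, 9 of them tested, with a median log2 change of -0.04. Their share of the family's summed FPKM was 26.2%, 25.7% and 27% in the controls and 24.8%, 25.3% and 25.1% with TPPU. The groups did not overlap in this share, which was not tested and in which Rab7 weighs most. Rab7 measured 108, 110 and 105 FPKM in the controls and 95.2, 97.1 and 98 with TPPU. Each TPPU value lay under each control value, by a small step relative to the level. The log2 difference was -0.15 (SE 0.08, limma adjusted p = 0.644), or -0.17 without control replicate 3. Across the whole table the TPPU libraries lay wholly above the controls in 7.48% of tested genes and wholly below them in 7.88%. Among the 38 Rab genes there were 2 above (Rab28 and Rab39) and 4 below (Rab7, Rab33b, Rab11b and Rab21), which makes 15.8% in both directions together, beside 15.4% of all tested genes. The share is near the background, so these separations are no result about the family.

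Rab7b, a distinct gene despite its name, acts between endosomes and the trans-Golgi network and is known to limit TLR4 and TLR9 signalling in macrophages. It measured 2.59, 2.84 and 3.8 FPKM in the controls and 4.08, 3.44 and 4.04 with TPPU. Only control replicate 3 reached into the TPPU range. Rab7 made up 95.9% to 97.6% of the pair's summed FPKM, and the share of Rab7b was 2.35%, 2.52% and 3.5% in the controls and 4.12%, 3.42% and 3.96% with TPPU.

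Rab20, known from the maturation of phagosomes, measured 17.2, 19 and 26.9 FPKM in the controls and 19.8, 19.7 and 20.6 with TPPU. The high control value was that of replicate 3, and the TPPU values lay between it and the other controls. Rab9, which returns mannose 6-phosphate receptors from late endosomes to the Golgi, measured 19.6, 19.9 and 13.7 FPKM in the controls and 19.5, 20 and 19.4 with TPPU. Here replicate 3 was the low library and the other 5 lay between 19.4 and 20. Rab34, a Golgi and phagosomal Rab, was at 19 to 21.5 FPKM in the controls and 20.5 to 22.3 with TPPU. Rab12, which sends transferrin receptors to lysosomes, was at 11.4 to 14.3 over the 6 libraries, Rab24, linked to autophagy, at 6.78 to 8.87, Rab29, a partner of the kinase LRRK2, at 5.56 to 7.51, and Rab32, which serves lysosome-related organelles, at 2.72 to 4.13. For each of these 4 genes the groups overlapped.

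Early endosomal, recycling and exocytic Rabs were the largest role group, with 19 genes, 16 of them tested, and held 48.3% to 49.6% of the family's summed FPKM in every library. The median log2 change was -0.04, or -0.10 without control replicate 3. Rab5c measured 70.5, 72.9 and 85.4 FPKM in the controls and 86.7, 72.4 and 82.3 with TPPU. Its values overlapped, with a log2 difference of 0.08 (SE 0.11, limma adjusted p = 0.862) that ran from 0.02 to 0.16 with 1 library left out. Rab5b was at 19 to 23 in the 6 libraries.

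Rab5a, the best studied Rab of early endosome fusion, measured 8.68, 11.2 and 3.65 FPKM in the controls and 7.78, 8.78 and 10.2 with TPPU. The low value belonged to control replicate 3 and set the wide control SD of 3.83 around a mean of 7.83. Rab5a was the minor form, at 3.37% of the summed FPKM of the 3 Rab5 genes in that library and 6.86% to 10.5% in the others, while Rab5c made up 68.5% to 78.8%.

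Rab31 measured 73.8, 73.5 and 61.1 FPKM in the controls and 76.3, 69.9 and 74 with TPPU, and these values overlapped. Its log2 difference was 0.08 (SE 0.10, limma adjusted p = 0.838), or -0.01 without control replicate 3. Its relative Rab22a, which sorts cargo through early endosomes, was at 13.6 to 17.3. Rab31 held 79.9% to 84.5% of the pair.

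Rab8b was the exocytic Rab with the lowest p. It measured 61, 67.6 and 55.5 FPKM in the controls and 50.2, 54.1 and 55.6 with TPPU, and the highest TPPU value barely overlapped with control replicate 3. The log2 difference was -0.20 (SE 0.10, 95% interval -0.43 to 0.03, limma adjusted p = 0.646). Without control replicate 3 it was -0.27 and the groups no longer overlapped (limma adjusted p = 0.316), and without control replicate 2 it was -0.12. With the GC trend removed it was -0.29, with the lowest limma adjusted p of the 38 genes in that setting, 0.192. Its close relative Rab8a measured 11.4, 10.8 and 14.4 FPKM in the controls and 13, 13 and 11.3 with TPPU. Rab8b made up 79.4% to 86.2% of the pair.

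Rab10, which carries cargo such as TLR4 and glucose transporters to the cell surface, measured 32, 33.9 and 31.4 FPKM in the controls and 35.5, 33.7 and 37.6 with TPPU. A single control value exceeded the lowest TPPU value. Its log2 difference was 0.13 (SE 0.09, limma adjusted p = 0.719), or 0.07 with the GC trend removed.

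Of the slow recycling pair, Rab11a measured 15.9, 18.8 and 11.8 FPKM in the controls and 13, 15.9 and 18.2 with TPPU. Rab11b measured 8.19, 8.1 and 9.7 FPKM in the controls and 8.05, 7.83 and 6.07 with TPPU. The Rab11b groups did not overlap, although 8.05 and 8.1 are closer than the values within either group. The log2 change of Rab11b was -0.22 (SE 0.13, limma adjusted p = 0.694), or -0.15 without control replicate 3 and -0.11 without TPPU replicate 3. Rab11a held 54.8% of the pair in control replicate 3 and 61.7% to 75% in the other libraries.

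Rab21, which moves integrins through early endosomes, measured 10.7, 11.1 and 12.7 FPKM in the controls and 10.1, 10.3 and 10.6 with TPPU. The TPPU values were tight and lay just under the control range. The log2 difference was -0.14 (SE 0.10, limma adjusted p = 0.739), or -0.07 without control replicate 3. Rab35, a Rab of fast recycling to the plasma membrane, was at 19 to 25.5 and Rab14, of endosomes and phagosomes, at 9.5 to 10.8 over the 6 libraries. Among the low members, Rab13, known from epithelial junctions, was at 2.19 to 2.97 FPKM in the controls and 1.37 to 2.46 with TPPU, Rab15, of recycling endosomes, at 2.19 to 3.05 and 1.63 to 2.22, and Rab4a, of fast recycling, at 2 to 2.45 and 1.8 to 3.08.

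**Figure D2:**
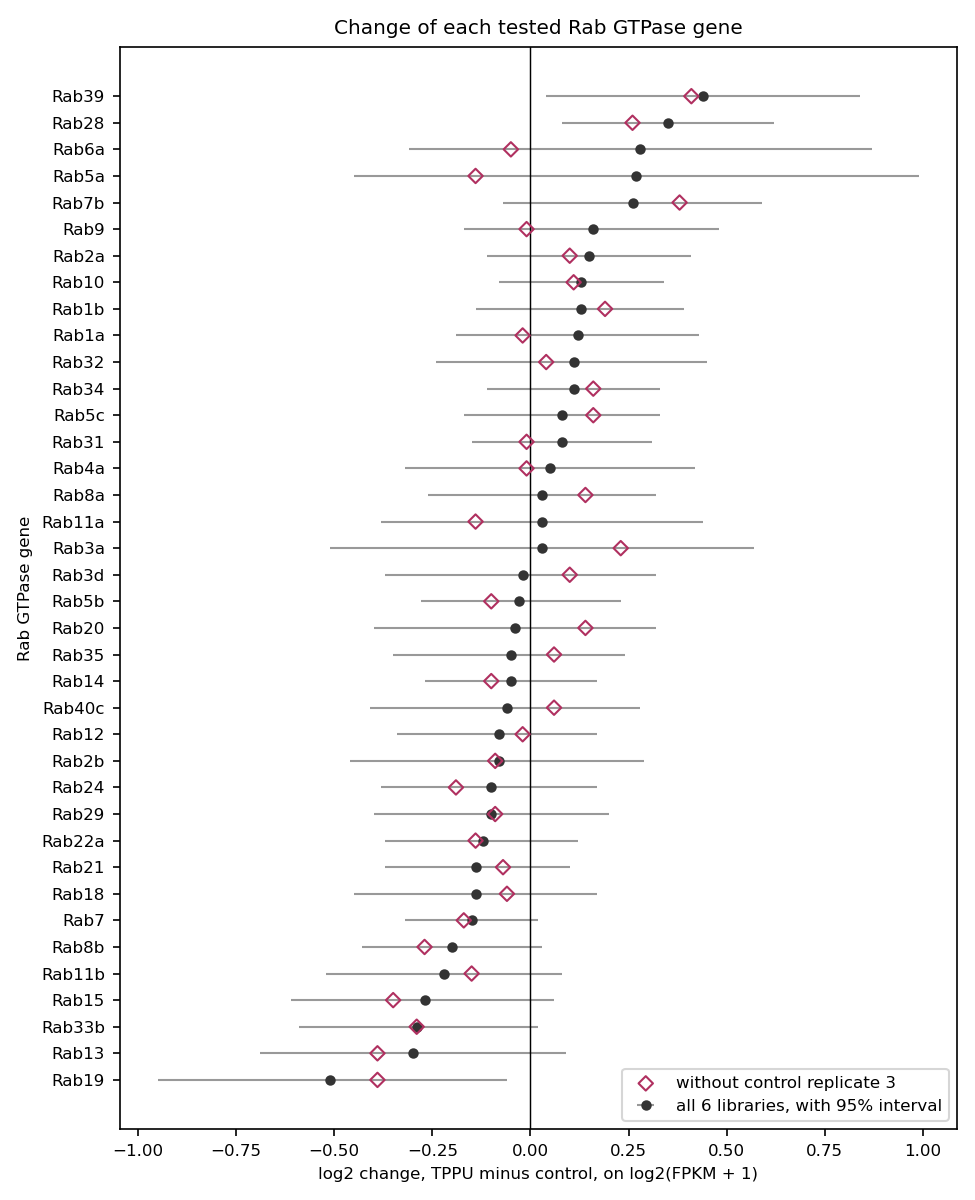
Log2 change of TPPU minus control for the 38 tested Rab GTPase genes, with 95% intervals from limma that are not adjusted for the number of genes (filled points) and the same change without control replicate 3 (open diamonds). Intervals of Rab28, Rab39 and Rab19 excluded 0 before adjustment, and Rab5a and Rab6a, at 0.27 and 0.28 with all libraries, moved to -0.14 and -0.05.

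ER and Golgi Rabs comprised 14 genes, 9 of them tested. Their share of the family's summed FPKM was 21.2%, 21% and 19.9% in the controls and 21.9%, 22.1% and 22.1% with TPPU. This share did not overlap between the groups and was not tested, and shares of 1 total cannot move independently. Their median log2 change was 0.12 with all libraries and -0.05 without control replicate 3, so the direction rested on that library. Rab1a measured 49.9, 55.1 and 38.6 FPKM in the controls and 48.3, 53.1 and 53.5 with TPPU. Its log2 difference of 0.12 (SE 0.13, limma adjusted p = 0.821) turned to -0.02 without control replicate 3. Rab1b measured 53.5, 48.4 and 58.1 FPKM in the controls and 66.3, 52.1 and 56.8 with TPPU, and its log2 change was 0.13 (SE 0.12, limma adjusted p = 0.785), or 0.03 without TPPU replicate 1. Rab1a made up 39.9% of the pair in control replicate 3, 42.2% in TPPU replicate 1 and 48.2% to 53.2% in the other 4 libraries.

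Rab2a, which works on the Golgi and in retrograde transport, measured 20.7, 23.9 and 20.1 FPKM in the controls and 22.4, 22.8 and 27.1 with TPPU. These values overlapped, with a log2 difference of 0.15 (SE 0.11, limma adjusted p = 0.74), or 0.07 without TPPU replicate 3. Its relative Rab2b was at 1.99 to 3.35 and made up 6.86% to 12.3% of the pair. Rab6a, which drives transport from endosomes to Golgi and back to the ER, measured 13.6, 14.5 and 6.52 FPKM in the controls and 12, 15.4 and 13.3 with TPPU. Replicate 3 of the controls was again the single low library, and the other 5 overlapped. The neuronal form Rab6b was at most 0.949% of the Rab6 sum. Rab18, of the ER and lipid droplets, was at 7.69 to 10.1 FPKM in the controls and 7.16 to 9.21 with TPPU.

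Rab33b, a Golgi Rab that binds the autophagy protein ATG16L1, measured 7.03, 5.82 and 6.38 FPKM in the controls and 4.22, 5.43 and 5.64 with TPPU. All TPPU values lay below all controls, with a log2 difference of -0.29 (SE 0.13, limma adjusted p = 0.627), and of -0.18 without TPPU replicate 1. Rab19, a little studied Golgi Rab, measured 3.48, 2.23 and 3.82 FPKM in the controls and 2.34, 2.03 and 1.41 with TPPU. Control replicate 2 lay within the TPPU range. Its log2 difference of -0.51 (SE 0.19, 95% interval -0.95 to -0.06, limma adjusted p = 0.577) was the most negative of the family, and it was -0.39 without control replicate 3.

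Rab39 had the most positive change with all libraries. Its product is known from the Golgi and from phagosomes, and binds caspase-1. It measured 1.12, 1.03 and 0.952 FPKM in the controls and 1.22, 2.36 and 1.79 with TPPU. The groups did not overlap, and the spread within TPPU was wider than within control. The log2 difference was 0.44 (SE 0.17, 95% interval 0.04 to 0.84, limma adjusted p = 0.603). It was 0.29 without TPPU replicate 2, where Rab28 exceeded it at 0.37, and 0.69 with a pseudocount of 0.1. The gene lies on chromosome 9 from 53684110 to 53706232 on the minus strand (mm10).

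Rab28 had the lowest p of the family. It is a divergent Rab known mainly from cilia and photoreceptors, and lies on chromosome 5 from 41624976 to 41708157 on the minus strand (mm10). It measured 10.3, 10.2 and 8.29 FPKM in the controls and 13.6, 12.1 and 11.8 with TPPU. The 3 TPPU values lay wholly above the controls, and control replicate 3 was the lowest library. The log2 difference was 0.35 (SE 0.12, 95% interval 0.08 to 0.62, limma adjusted p = 0.562), or 0.26 without that library. Rab28 had the lowest transcript GC content of the tested Rab genes, 36.8%, and its log2 difference was 0.22 with the GC trend removed from each library.

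Rabs of regulated secretion were weakly expressed, with 2 of 8 tested. Rab3d, the Rab3 form of secretory granules outside the nervous system, measured 7.54, 6.42 and 9.33 FPKM in the controls and 6.53, 7.82 and 8.37 with TPPU. It made up 80.2% to 91.3% of the summed FPKM of the 4 Rab3 genes. Rab3a, the synaptic vesicle form, was at 0.579 to 1.81. Rab27a, which docks secretory granules and multivesicular bodies, missed the filter, at 0.904, 0.847 and 0.999 FPKM in the controls and 0.878, 1.07 and 1.2 with TPPU. Its groups overlapped. Rab40c, whose SOCS box recruits a ubiquitin ligase, belonged to the remaining genes and was at 9.28 to 13.

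For the 18 GTPase genes that missed the filter an exact permutation test (two-sided) was used, whose smallest possible p with 3 libraries against 3 is 0.1. Highest among them were Rab27a, Rab23, a regulator of Hedgehog signalling at 0.59 to 1.06, and Rab43, a Golgi Rab. Rab43 measured 0.45, 0.635 and 1.06 FPKM in the controls and 0.398, 0.349 and 0.443 with TPPU, and Rab4b, the second fast recycling form, 0.402, 0.541 and 0.585 FPKM in the controls and 0.362, 0.156 and 0.239 with TPPU. Both lay below control in all TPPU libraries and reached that smallest p of 0.1 in the exact permutation test. Across the genes below the filter 4.10% lay wholly below control and 3.99% wholly above.

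Rab4b contributed 14.1%, 19.2% and 22.7% of the summed Rab4 FPKM in the controls and 13.7%, 7.98% and 7.2% with TPPU. Its lowest value, 0.156 FPKM in TPPU replicate 2, lay near the floor given below, on a longest transcript of 1372 bases. Both this share and the p of Rab4b therefore rest on few fragments. Its sequence is also 93% shared with the model Gm21983, as described below. Rab17, an epithelial Rab, was listed at 0 in all 3 controls and at 0.0276, 0.132 and 0.0709 with TPPU. Its exact permutation p was 0.1 as well. A floor of 3 fragments on 1 kb corresponds to 0.132 to 0.169 FPKM at these depths, which covers counting error alone. The Rab17 values lay at or under that floor for 1 kb. Its longest transcript has 1831 bases, on which the same FPKM stands for more fragments, but still for few. In all, 11 of the 18 genes had a mean under 0.15 FPKM, among them Rab3b, Rab6b, Rab26, Rab37 and Rab44, and 11 of the 56 were at 0 in at least 1 library. None was at 0 in every library.

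**Figure D3:**
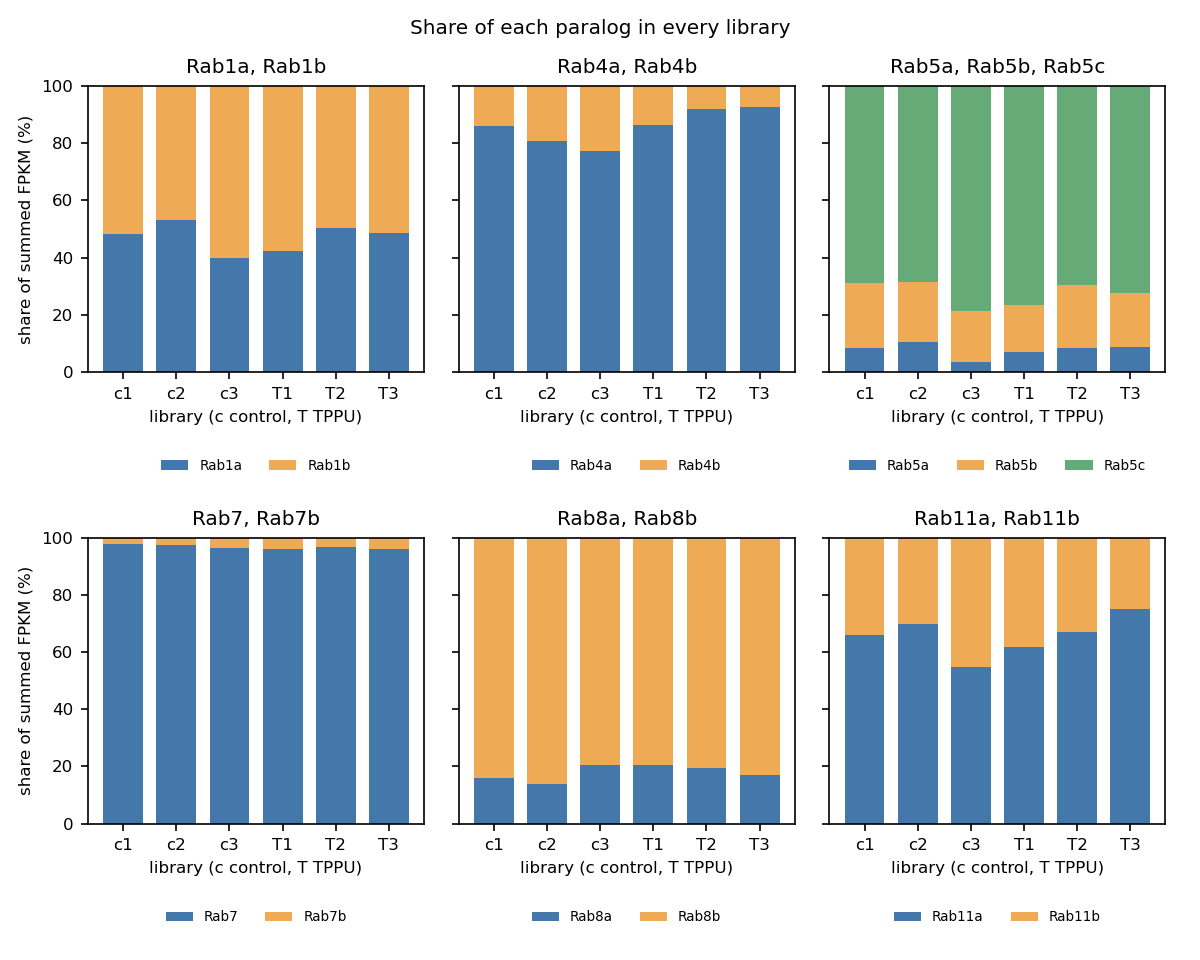
Share of each paralog in the summed FPKM of its set, 1 bar per library (c for control, T for TPPU). Rab7, Rab8b, Rab5c and Rab4a were the major forms in every library, and control replicate 3 had the lowest share of Rab1a, Rab5a and Rab11a.

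Control replicate 3 touched many of these values. It was the lowest of the 6 libraries for 11 of the 38 tested genes and the highest for another 11, beside 27.7% and 34.8% of all tested genes. The 11 where it was lowest, with Rab5a, Rab6a, Rab11a, Rab1a and Rab9 among them, had a median transcript GC content of 44.4%, and the 11 where it was highest, such as Rab20, Rab35 and Rab3a, one of 51.5%. Over the 38 genes, which share these libraries and are no independent replicates, its log2 deviation from the other controls had a Spearman's rho of 0.45 with GC content, beside 0.63 over 9522 genes. The deviation was largest for Rab5a, at -1.22, and Rab6a, at -1.01. The part of GC content in any difference between the groups was not tested. With the GC trend removed from each library, the median log2 change of the 38 genes was -0.01 beside -0.03, and 0 were called. The log2 changes of the 38 genes had a rho of -0.17 with GC content with all libraries and of 0.15 without control replicate 3. Over all tested genes with a GC value the rho was -0.29 and 0.14.

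**Figure D4:**
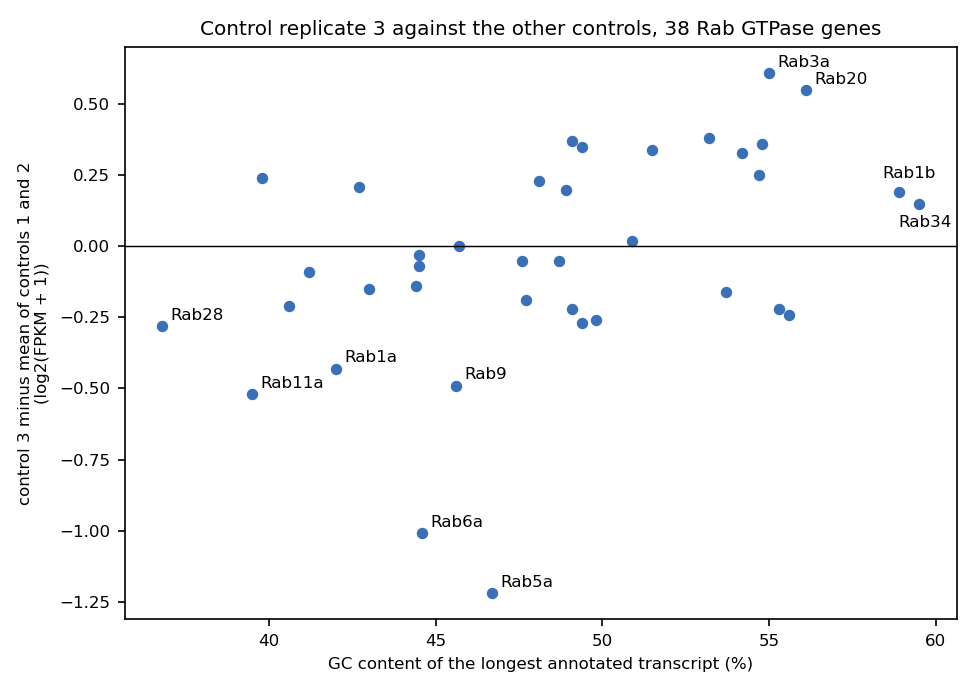
Deviation of control replicate 3 from the mean of controls 1 and 2 on log2(FPKM + 1), against the GC content of the longest annotated transcript, for the 38 tested Rab GTPase genes. Rab11a, Rab1a and Rab28, of low GC content, lay below 0 although other genes of low GC content lay above it, and Rab20 and Rab3a lay highest.

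Of the 4 rows that fit the spelling alone, 3 were tested and none passed. Rab3ip was at 8.09 to 10.5 FPKM in the controls and 7.83 to 9.91 with TPPU, and Rab5if at 13.2 to 15.4 and 13 to 14.9. Rab10os measured 5.21, 5.39 and 6.04 FPKM in the controls and 5.49, 5.04 and 4.6 with TPPU. Its annotated end overlaps the end of Rab10 on the other strand. The libraries kept the strand, but whether counting used it is not given in the sources used here, so reads of the 2 genes may not be separated. Rab26os was at most 0.436 FPKM and missed the filter.

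Paralogs shared almost no sequence that could mix their reads. Of the stretches of 50 bases in the longest transcript of each member, none occurred in a transcript of another member on the same strand, except 21 of the 6060 stretches of Rab11b. Other models shared more. Of the 50-base stretches of Rab43 90.3% and of Rab4b 93% also occur in the models Gm45140 and Gm21983, and of Rab7 14.5% occur in Rab7-ps1, of Rab5b 13% in Gm13991, and of Rab11b 9.75% in other models, chiefly Rab11b-ps2. The levels of these 5 genes depend on how the authors assigned such reads. Matches to other models on the opposite strand were most frequent for Rab2b (68.3% of stretches), Rab24 (48.9%), Rab20 (22.9%), Rab6a (20.8%) and Rab33b (20.7%). Reads of those genes may not be separated either if counting ignored the strand, which was not tested.

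The proteins that load, recycle and switch Rabs were read from lists of known regulators. Of 8 genes for prenylation and extraction, all tested, 0 passed in either direction, and 4 had positive and 4 negative log2 changes. The gene Gdi2, which encodes a dissociation inhibitor, was at 4.77 to 11.8 FPKM in the controls and 5.7 to 14 with TPPU. Chm, which encodes the escort REP1, was at 1.79 to 3.9, and Rabggtb, the beta subunit of the geranylgeranyl transferase, at 50.9 to 56.7.

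Of 43 GEF and TRAPP genes 41 were tested and 0 passed. At an unadjusted p under 0.05, 2 were higher and 2 lower, near the background of 4.19% and 3.70% of all tested genes. Rabgef1, which encodes the Rab5 exchange factor Rabex-5, measured 25.9, 25.1 and 32.4 FPKM in the controls and 20.1, 21.5 and 20.8 with TPPU. The TPPU values lay well under the control range, with a log2 difference of -0.39 (SE 0.12, 95% interval -0.66 to -0.13, limma adjusted p = 0.492), or -0.28 without control replicate 3 (limma adjusted p = 0.286). The TRAPP complex is the exchange factor of Rab1. Its subunit gene Trappc3 measured 28.9, 26.1 and 28.5 without TPPU and 24.1, 22.2 and 20.1 with it. Another, Trappc4, measured 18.8, 20 and 19.8 without TPPU and 23.1, 22.4 and 25.3 with it. Their log2 differences were -0.32 (SE 0.10, limma adjusted p = 0.554) and 0.26 (SE 0.09, limma adjusted p = 0.564), in opposite directions, and neither gene's groups overlapped. Over the 41 tested GEF and TRAPP genes the groups did not overlap in 9.76%, beside 15.4% of all tested genes. Trappc1 was at 17.8 to 26.2 FPKM in the controls and 25 to 32.7 with TPPU.

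Of 37 GAP genes 32 were tested and 0 passed. They had 9 positive and 23 negative changes, so 28.1% were positive beside 54.4% of all tested genes, with a median of -0.09. Without control replicate 3 there were 14 positive and 18 negative, with a median of -0.03. The groups did not overlap in 9.38% of the tested GAP genes, beside 15.4% of all tested genes. All TPPU values lay below control for Tbc1d8b, at 1.55 to 1.96 FPKM in the controls and 1.16 to 1.46 with TPPU. Rab3gap2, a subunit of the Rab3 GAP that is also an exchange factor of Rab18, was at 32.8 to 37.5 and 29.8 to 33. Tbc1d20, a GAP of Rab1, was at 45.1 to 55.2 and 36.5 to 46.1, and Tbc1d22b at 10.1 to 15.6 and 8.66 to 10.6.

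Of 50 effector genes 36 were tested and 0 passed, with a median of -0.01. The Rab11 effector genes Rab11fip5 and Rab11fip1 were at 23.5 to 29 and 7.39 to 10.6 in control, and at 20.7 to 22.7 and 6.61 to 7.36 with TPPU. Bicd2, which links Rab6 vesicles to dynein, was at 14.3 to 18.2 and 12.9 to 13. The 3 lay wholly below control with TPPU, and control replicate 3 was the highest library for each. Rilpl1, whose product binds Rabs phosphorylated by LRRK2, lay above control, at 4.93 to 6.19 and 6.33 to 7.4, with a log2 difference of 0.27 (SE 0.12, limma adjusted p = 0.627), or 0.35 without control replicate 3. In 22.2% of the tested effectors the groups did not overlap, beside 15.4% of all tested genes, and without control replicate 3 the shares were 31.4% and 29.5%.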

How the data were processed

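FPKM values for 18019 gene symbols in 6 libraries were deposited by the authors as 1 table. Its name and values give the unit, and the submitters' processing notes name mm10 as the build. No source used here names the aligner, the counting program, the annotation or a filter. Columns were matched by the library names in the labels. The members and gene lists were chosen with earlier results of these data known. Values in every library are given for members whose groups did not overlap, the 6 with the smallest p and the 8 with the highest mean. They are also given for some further members, such as Rab20 and Rab9. Paralog sets are described by level or share, in part as ranges. Up to 4 genes per regulator list with the smallest p are named. One gene that this rule names is not reported here.

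Genes reaching 1 FPKM in 3 or more libraries were tested with limma 3.58.1 in R 4.3.3 on log2(FPKM + 1), a scale that understates changes of low genes. The fit had a mean-variance trend and the group alone, and tests were two-sided with Benjamini-Hochberg adjustment over 9728 genes. Depth came from the steps of low values in genes with 1 annotated transcript, of which 91% to 92.1% were whole within 0.1 of a fragment (20% by chance). GC content, positions and 50-base matches were read from GENCODE M21, on the same build, which held all 60 members and 97.9% of tested genes. The fit was tested on simulated data. Python 3.11.15, numpy 2.4.6, pandas 2.3.3, scipy 1.17.1 and matplotlib 3.10.9 were used. The 17 alternatives changed the pseudocount, filter, scaling, model, GC or length trend, or left out a library.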

Additional observations from a re-analysis of the deposited data

How the results depend on the processing

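No Rab GTPase gene was called under any of the 17 alternatives, and the lowest limma adjusted p among them ran from 0.0919 (Rab19, quality weights) to 0.988 (without TPPU replicate 3). The named regulator genes were not called either, but some came closer to the threshold. Their lowest limma adjusted p values were 0.0512 for Trappc3, 0.0705 for Rabgef1, 0.0731 for Rilpl1 and 0.0811 for Trappc4. Over all genes, quality weights called 89 higher and 80 lower. With 1 library left out 0 to 4 were higher and 0 to 1 lower, and calls were made only when TPPU replicate 1 was left out. Rab genes wholly above control numbered 2, but 1 when a mean of 5 FPKM was required, 1 with the GC trend removed, 3 with no filter, and 2 to 7 with a library left out. Those wholly below numbered 4, but 6 with no filter, 5 with the GC trend removed or quantile normalization, 3 with the length trend removed, and 4 to 9 with a library left out. With 2 libraries against 3 groups separate more easily, and the shares of all tested genes rose too, from 7.48% above and 7.88% below to 11% to 17.1% above and 10.3% to 14.5% below. The 7 above came without TPPU replicate 2 (18.4% of Rab genes beside 11%), and the 9 below without control replicate 3 (23.7% beside 12.5%) or TPPU replicate 1 (23.7% beside 14.1%).

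The median log2 change of the Rab genes, -0.03, was 0.00 with quality weights. That of ER and Golgi Rabs, 0.12, was 0.00 with no filter, 0.04 with the GC trend removed, and -0.05 to 0.12 with a library left out. The early and recycling median ran from -0.10 to -0.01 and the late endosomal one from -0.10 to -0.01 with a library left out, and the latter was 0.02 with quality weights. The median of the remaining Rabs, 0.14, was -0.03 with no filter, and that of prenylation genes ran from -0.07 to 0.01 with a library left out. Among named genes the change of Rab31, 0.08, turned to -0.02 with quality weights and ran from -0.01 to 0.13 with a library left out. Those of Rab1a, Chm and Gdi2 ran from -0.02 to 0.23, -0.07 to 0.33 and -0.08 to 0.56. The cause was not tested.

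Same-numbered libraries did not deviate together (correlations of -0.3, 0.15 and -0.4), which gave no sign of pairing. Control replicate 3 enters the deviations of every control through the group mean, so these correlations cannot decide whether the numbers pair the libraries. With the replicate number as a block 0 genes were called in either direction, and the Rab median was -0.03.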
